A study of Mus musculus with 8 samples.

Results

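The 6 ligands Areg, Ereg, Hbegf, Tgfa, Btc and Egf and the 4 receptors Egfr, Erbb2, Erbb3 and Erbb4 were examined in mouse endometrium. These 10 genes of the EGF family and its ERBB receptors were chosen by symbol from 52325 genes with estimated counts. RNA-seq had been done on endometrium laser-captured from frozen uterine sections, in 4 libraries from Thra1PV/+ mice and 4 from wild-type (WT) mice, all in metestrus. Thra1PV/+ mice carry the PV mutation, a C-terminal frameshift that makes thyroid hormone receptor TRα1 dominant negative, in 1 allele of Thra, while the other allele is intact. The mutation is a knock-in present in all cells of the animal and not only in the endometrium, and WT mice carry none. The ages of the mice were not given for these libraries in the sources used here. The libraries of a genotype number as many as its mice in this experiment. 

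The ligands are made as membrane-anchored precursors that metalloproteases of the ADAM family release from the cell surface. Amphiregulin (Areg), TGFα (Tgfa) and EGF (Egf) bind the receptor EGFR, while HB-EGF (Hbegf), betacellulin (Btc) and epiregulin (Ereg) bind EGFR and ERBB4. Receptors act as dimers: ERBB2 binds no known ligand and serves as a partner, ERBB3 binds neuregulins and signals mainly through a partner, and ERBB4 binds neuregulins and has its own kinase activity. In the mouse uterus this system is best known from implantation, when Areg is induced in the epithelium by progesterone and Hbegf appears in the luminal epithelium around the attaching blastocyst. Metestrus is a stage of the estrous cycle in mice that are not pregnant.

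The ligand genes Epgn, Ereg, Areg and Btc lie next to each other on chromosome 5 (GRCm38 91027464 to 91402994, 376 kb), with 0 other protein-coding genes between them in GENCODE M21. Areg lay at 91139599 to 91148432 on the plus strand. Erbb4 spans a much larger locus on the minus strand of chromosome 1, from 68032186 to 69108059. Antisense genes overlap Ereg, Tgfa, Egf, Egfr and Erbb2, among them Egfros at Egfr and Mien1 at Erbb2, and noncoding genes overlap Erbb4 on its own strand. Strand settings of the quantification are not given in the sources used here, so reads of such partners may have been shared.

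RefSeq promoter windows (GRCm38.p6) ran from 250 bases before to 50 after the start site, 5′ to 3′ on the strand of the gene. They were searched for 7 of the 10 members, with 2 windows for Egf. Hbegf was left out of the search, and windows of Ereg and Erbb3 were not matched. The Areg window (chr5:91139349-91139648, plus strand) and the Erbb4 window (chr1:69108010-69108309, minus strand) are printed because Areg is the progesterone-induced ligand of the uterus and Erbb4 was the member with separated genotypes below. Capitals mark matches on either strand to TATAAA (the TATA box), to TGACG (the core of the cAMP response element), to GGGCGG (the GC box of Sp factors) or to AGGTCA (the hexamer that thyroid hormone receptors bind in pairs).
Areg: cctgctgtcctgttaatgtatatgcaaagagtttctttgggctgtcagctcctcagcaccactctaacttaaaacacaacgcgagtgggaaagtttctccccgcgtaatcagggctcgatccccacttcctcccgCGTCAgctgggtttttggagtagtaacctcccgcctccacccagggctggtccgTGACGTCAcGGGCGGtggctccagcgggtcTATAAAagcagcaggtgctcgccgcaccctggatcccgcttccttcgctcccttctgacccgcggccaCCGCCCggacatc
Erbb4: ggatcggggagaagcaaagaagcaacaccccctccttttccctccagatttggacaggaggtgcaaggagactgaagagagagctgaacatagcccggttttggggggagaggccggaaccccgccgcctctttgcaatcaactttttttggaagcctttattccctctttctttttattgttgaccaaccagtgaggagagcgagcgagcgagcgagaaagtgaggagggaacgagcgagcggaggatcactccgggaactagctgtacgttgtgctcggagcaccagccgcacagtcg
The Areg window held TATAAA with its first base at -31 from the start site, TGACG at -115, -61 and -58, and GGGCGG at -52 and 38. The matches at -61 and -58 overlap and lie on opposite strands. Of the 32851 RefSeq windows of this length, 13.6% held TATAAA, 20.8% TGACG and 35.7% GGGCGG. Erbb4 held none of these letters in its window. AGGTCA, present in 16.3% of all windows, was in no window of the 7 members searched.

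Library totals ranged from 48791602 to 59818887 counts, and 18174 genes passed the filter on low counts. Of these, 180 (0.99%) were called at a fold change of at least 2 and an adjusted p of 0.1 or less by edgeR's quasi-likelihood test, 168 higher and 12 lower in Thra1PV/+ endometrium. Thra itself had 80.1 ± 34.2 CPM (counts scaled to library size after TMM normalization; SD, n = 4) in Thra1PV/+ and 78.0 ± 33.7 CPM in WT libraries, and these counts do not separate the PV transcript from the intact one. Of 12 squamous epithelial genes, which mark a cell type foreign to normal endometrium, 10 were called higher (summed level 3249 to 5179 CPM against 18.1 to 122 CPM in WT). Stromal and epithelial markers were present in every library. Of 8 gland genes, 5 were tested and 0 were called, with a median log2 fold change of 0.07 and a range of -0.72 to 0.81. These RNA levels do not count glands, and the paper reports far fewer glands per area of mutant endometrium by histology. The gland genes Prss28, Prss29 and Spink1 failed the filter. Log2 CPM of libraries of 1 genotype correlated at 0.901 to 0.974 across genes.

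None of the 10 members was called by edgeR. Ereg failed the filter on low counts and 9 were tested, of which 6 had a positive log2 fold change, with a median of 0.21 against -0.05 over all 18174 tested genes. Erbb4 was the 1 member with an unadjusted p under 0.05 (9.77% of all tested genes) and the 1 member whose libraries did not overlap between genotypes (6.04% of all tested genes). By direction, edgeR called 0.924% of all tested genes higher and 0.066% lower in Thra1PV/+ endometrium. At an unadjusted p under 0.05 these shares were 5.05% higher and 4.72% lower, and for libraries without overlap 3.55% higher and 2.49% lower. DESeq2 called Erbb4 as well and no other member, in a fit that called 3.58% of its 22073 genes. The counts over the members were therefore near the background.

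**Figure D1:**
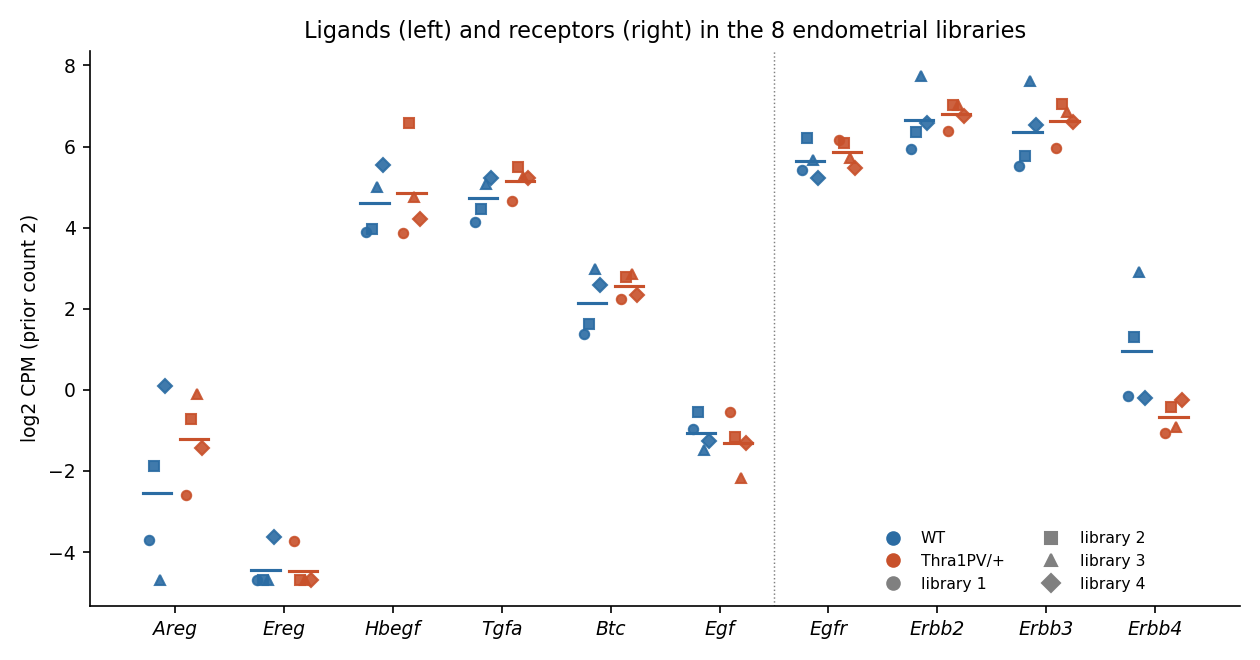
Log2 CPM (prior count 2) of the 6 ligands and 4 receptors in each library, blue for WT and orange for Thra1PV/+, with a symbol for each library number and a line at the group mean. Erbb4 is the member with no WT library below the highest Thra1PV/+ library, and Ereg lies at the floor.

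Levels of different genes were compared per length, in the deposited TPM (a unit scaled by transcript length and library). Erbb2 was the most abundant member at 26.0 ± 9.58 TPM (mean ± SD over 8 libraries), followed by Hbegf at 19.0 ± 15.9 TPM and Erbb3 at 18.9 ± 8.77 TPM. Tgfa had 9.14 ± 2.88 TPM, Egfr 7.41 ± 1.80 TPM and Btc 2.86 ± 1.25 TPM. The 4 remaining members were scarce, with Areg at 0.490 ± 0.502 TPM, Erbb4 at 0.301 ± 0.573 TPM, Egf at 0.160 ± 0.0533 TPM and Ereg at 0.00316 TPM. Most neighbours in this order overlapped: Hbegf exceeded Erbb3 in 2 of 8 libraries, Erbb4 exceeded Egf in 2 of 8, and Tgfa exceeded Egfr in 5 of 8. Ranges did not overlap between Egfr and Btc and between Egf and Ereg. Erbb3 exceeded Tgfa, and Btc exceeded Areg, in 8 of 8 libraries although their ranges overlapped.

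**Figure D2:**
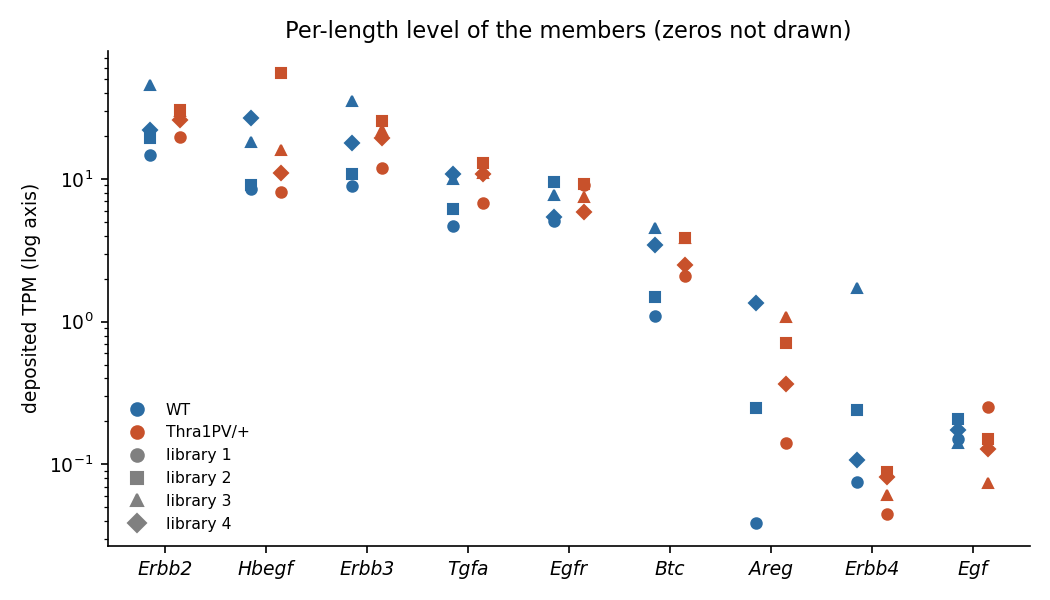
Deposited TPM of the members (log axis, values of 0 not drawn, Ereg left out) in the 8 libraries, ordered by their mean. Erbb2, Hbegf and Erbb3 stand at the top, and Areg, Erbb4 and Egf at or under about 1 TPM in most libraries.

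Among the 4 receptors, TPM of Erbb2 made up 48.9% ± 1.76 of their sum in Thra1PV/+ and 49.8% ± 1.33 in WT libraries (SD, n = 4). Erbb3 held 35.8% ± 4.59 and 34.0% ± 6.14, and Egfr 15.2% ± 4.95 and 15.4% ± 6.73. These 3 shares differed between genotypes by less than their SD. Erbb4 was a trace receptor in both, at 0.103% to 0.159% in Thra1PV/+ and 0.235% to 1.89% in WT libraries.

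Areg, the ligand induced by progesterone, was low in all libraries. Its level was 0.129, 0.568, 0.899 and 0.333 CPM in Thra1PV/+ libraries 1 to 4 and 0.0382, 0.235, 0 and 1.03 CPM in WT libraries 1 to 4. The highest and the lowest library were both WT, and the WT library at 0 counts allows up to 0.0597 CPM (3 counts; counting error only). Areg differed by 0.57 on the log2 scale (SE 1.18, 95% interval -2.14 to 3.28, adjusted p = 0.925). Without WT library 4 its log2 fold change was 2.35 (adjusted p = 0.518). Ereg, its neighbour, had 2 counts in Thra1PV/+ library 1, 2 in WT library 4 and 0 in the other 6 libraries. A difference in Ereg was not detectable at this depth.

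Hbegf, the heparin-binding ligand, was far more abundant. Its level was 14.7, 95.8, 27.1 and 18.5 CPM in Thra1PV/+ and 14.9, 15.5, 32.1 and 46.4 CPM in WT libraries. Thra1PV/+ library 2 stood apart from the other 7, and without it the groups still overlapped. The log2 fold change was 0.52 (SE 0.65, 95% interval -0.97 to 2.01, adjusted p = 0.858) and became -0.44 without that library.

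Tgfa was at 25.3, 45.0, 38.3 and 37.4 CPM in Thra1PV/+ and 17.6, 21.9, 34.0 and 37.4 CPM in WT libraries. Both WT libraries 1 and 2 lay below all Thra1PV/+ libraries, while WT libraries 3 and 4 lay among them. The log2 fold change of Tgfa was 0.40 (SE 0.28, 95% interval -0.24 to 1.03, adjusted p = 0.706). Btc had 4.68, 6.88, 7.17 and 5.03 CPM in Thra1PV/+ and 2.58, 3.05, 7.92 and 5.99 CPM in WT libraries. Again WT libraries 1 and 2 lay below all Thra1PV/+ libraries, while WT library 4 lay among them and WT library 3 above them all. The log2 fold change of Btc was 0.28 (SE 0.40, 95% interval -0.63 to 1.19, adjusted p = 0.876).

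Egf, the founding ligand of the family, was scarce, at 0.643, 0.406, 0.184 and 0.368 CPM in Thra1PV/+ and 0.477, 0.650, 0.318 and 0.377 CPM in WT libraries. The groups overlapped throughout. The log2 fold change was -0.19 (SE 0.45, 95% interval -1.21 to 0.84, adjusted p = 0.937).

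Among the receptors, Egfr was at 72.2, 68.3, 52.3 and 44.6 CPM in Thra1PV/+ and 43.1, 73.5, 51.1 and 37.5 CPM in WT libraries. It varied least of the members over the 8 libraries, with an SD of 0.369 of its log2 CPM, and the groups overlapped. Its log2 fold change was 0.21 (SE 0.24, 95% interval -0.35 to 0.77, adjusted p = 0.844), an interval that does not reach a fold change of 2 in either direction.

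Erbb2, the receptor without a ligand, had 84.0, 130, 130 and 107 CPM in Thra1PV/+ and 61.3, 81.8, 214 and 96.2 CPM in WT libraries. WT libraries included the lowest value and, in library 3, the highest. The log2 fold change was -0.01 (SE 0.38, 95% interval -0.86 to 0.85, adjusted p = 0.998). Without WT library 3 it was 0.52 and the adjusted p was 0.439. Erbb3, the partner of Erbb2 that binds neuregulins, was at 62.8, 133, 115 and 96.8 CPM in Thra1PV/+ and 45.8, 54.8, 196 and 91.9 CPM in WT libraries. Its libraries were ranked much like those of Erbb2, again with WT library 3 on top and WT library 1 at the bottom. The log2 fold change of Erbb3 was 0.07 (SE 0.46, 95% interval -0.99 to 1.13, adjusted p = 0.982) and was 0.69 without WT library 3.

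Erbb4 had 24, 35, 24 and 46 counts in Thra1PV/+ and 45, 135, 375 and 40 counts in WT libraries, or 0.441, 0.710, 0.490 and 0.806 CPM against 0.859, 2.44, 7.46 and 0.837 CPM. All WT libraries lay above all Thra1PV/+ libraries in CPM, but WT libraries 1 and 4 only just, and WT library 3 held most of the difference. The log2 fold change was -2.24 (SE 0.75, 95% interval -3.95 to -0.53, unadjusted p = 0.0164, adjusted p = 0.363 in edgeR's quasi-likelihood test). DESeq2 gave -2.22 and an adjusted p of 0.0580, which passed the threshold and which 1.01% of its genes passed in this direction. The exact two-sided permutation p was 0.0286, the smallest that 4 against 4 libraries can give. Without WT library 3 the log2 fold change was -1.15 (adjusted p = 0.454), and in edgeR its adjusted p lay between 0.277 and 0.753 with any 1 library left out.

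**Figure D3:**
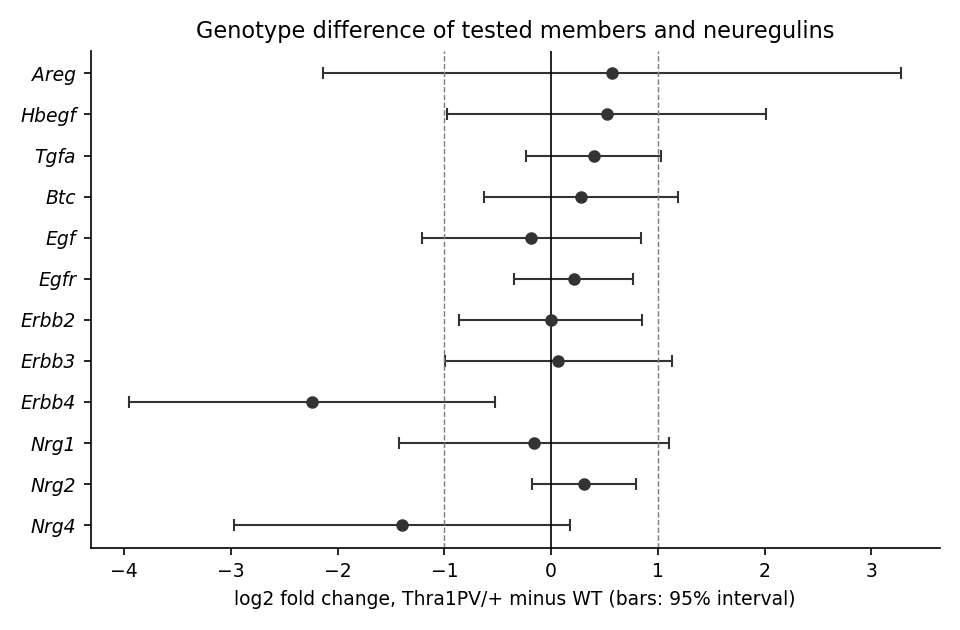
Log2 fold change (Thra1PV/+ minus WT) of the tested members and of 3 neuregulins, with 95% intervals from edgeR and dashed lines at a fold change of 2. The interval of Erbb4 lies below 0 (-3.95 to -0.53), and the others include 0.

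The amount of epithelium in a captured piece may differ between libraries, and in bulk tissue fewer cells of a type and less RNA per cell cannot be told apart. The members were therefore set against 8 pan-epithelial genes, among them Epcam, Cdh1, Esrp1 and Grhl2. Their mean log2 CPM was 6.50, 7.58, 7.49 and 7.33 in Thra1PV/+ and 6.06, 6.46, 7.86 and 7.27 in WT libraries. WT libraries 1 and 2 were low and WT library 3 was highest, as for Btc, Erbb2 and Erbb3. For Tgfa, WT libraries 1 and 2 were likewise lowest, but WT library 3 was below WT library 4 and 3 of the Thra1PV/+ libraries.

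After subtraction of this mean in each library, Erbb3 lay between -0.73 and -0.52 in Thra1PV/+ and between -0.75 and -0.24 in WT libraries. The SD of Erbb3 over the 8 libraries was 0.702 as log2 CPM and 0.163 relative to the epithelial genes. For Erbb2 the SD went from 0.547 to 0.252, for Btc from 0.583 to 0.217 and for Tgfa from 0.469 to 0.288. Egfr went the other way, from 0.369 to 0.791, and so did Egf, from 0.527 to 1.08. Over 12124 genes whose log2 CPM averaged 2 or more, the SD became smaller in 13.5% and its median went from 0.318 to 0.703. Of the 6 members in that set, 5 had a smaller SD. Only 10 of the 12124 genes, Erbb3 included, had a relative SD as small as that of Erbb3, and 50 had one as small as that of Btc. Erbb3, Erbb2 and Btc thus had levels that moved with the epithelial genes over these 8 libraries, and Egfr did not. The points share their libraries and depth, and this is a description without a test.

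**Figure D4:**
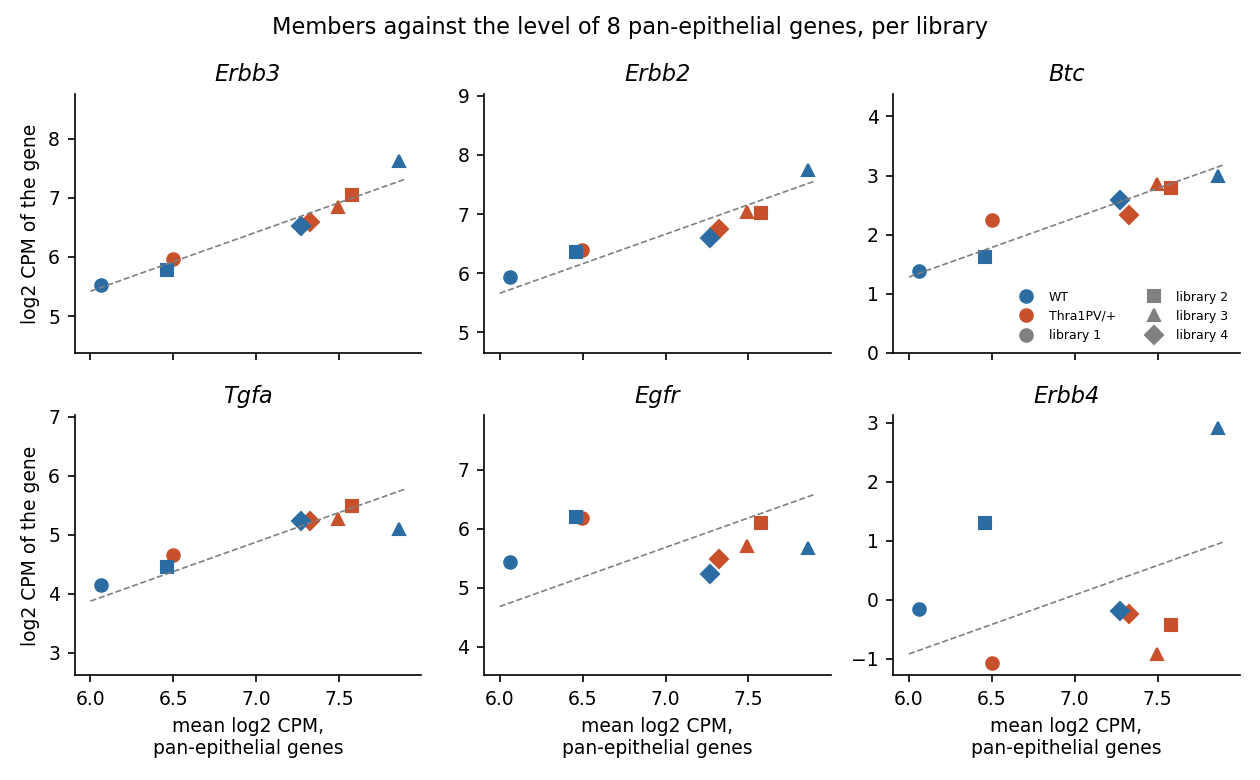
Log2 CPM of 6 members against the mean log2 CPM of 8 pan-epithelial genes, 1 point for each library, with a dashed line of slope 1 through the mean. Erbb3, Erbb2 and Btc lie near the line, and Egfr does not follow it. Relative to the epithelial mean, Erbb4 is higher in the WT libraries, in WT library 4 only just (-7.46 against -7.56 in Thra1PV/+ library 1).

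Relative to the epithelial genes, the genotypes overlapped for 8 of the 9 tested members. Erbb3 differed by -0.05 (exact permutation p = 0.8), Erbb2 by -0.17 (exact p = 0.457) and Egfr by -0.08 (exact p = 0.971) on the log2 scale. Among the ligands, Tgfa differed by 0.12 (exact p = 0.771), Btc by 0.09 (exact p = 0.657) and Hbegf by -0.05 (exact p = 0.971). Egf differed by -0.55 (exact p = 0.429) and Areg by 1.03 (exact p = 0.514). None of these differences was larger than the spread between libraries. Erbb4 remained apart, at -7.56, -8.00, -8.41 and -7.57 in Thra1PV/+ and -6.22, -5.15, -4.96 and -7.46 in WT libraries. The difference was -1.94 (exact permutation p = 0.0286). Set against 8 genes of simple epithelium in place of the pan-epithelial genes, it was -1.62 with overlap (exact p = 0.114).

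Marker lists of some other cell types also leaned to 1 side between genotypes, with few genes called by edgeR. The endothelial list did not, with 2 of 6 log2 fold changes positive and 0 at an unadjusted p under 0.05. The 8 smooth muscle genes summed to 199.6 to 835 CPM in Thra1PV/+ and 675 to 15718 CPM in WT libraries. All 8 were lower at an unadjusted p under 0.05, and 0 were called. Their mean was 10.6 log2 CPM in WT library 1 and 6.04 to 7.06 in the other WT libraries. The ciliated epithelium genes summed to 10.4 to 14.7 CPM against 22.8 to 114 CPM, and 1 of 5 was called lower, the ciliary regulator Foxj1. Leukocyte genes summed to 421 to 964 CPM against 152 to 303 CPM, with 6 of 10 higher at an unadjusted p under 0.05 and 0 called. The 10 stromal genes summed to 460 to 3444 CPM against 1307 to 4166 CPM, all 10 had a negative log2 fold change (median -0.83), and 0 were called by edgeR. Among them the proteoglycan gene Dcn, at a log2 fold change of -2.24 (adjusted p = 0.355), had the 1 unadjusted p under 0.05, did not overlap between genotypes and was called by DESeq2 (adjusted p = 0.0466). The 5 blood genes summed to 14.6 to 29.3 CPM against 17.1 to 179 CPM, with 5 of 5 negative, 2 at an unadjusted p under 0.05 and 0 called. No gene of the smooth muscle, leukocyte, stromal or blood list was at 0 in any library. WT library 3, with the highest Erbb4, had the lowest WT mean of the smooth muscle genes (6.04 log2 CPM), the ciliated genes (-0.41), the stromal genes (6.01) and the blood genes (1.33). It was also the lowest WT library for the leukocyte (2.10), endothelial (3.34) and gland genes (5.47), and the highest for the pan-epithelial genes (7.86). The part of these cell types in the Erbb4 values was not tested.

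Of the 5 other family ligands, 3 were tested and 0 were called. Nrg1, a neuregulin that binds ERBB3 and ERBB4, was at 9.11, 1.75, 2.39 and 2.75 CPM in Thra1PV/+ and 4.79, 2.64, 4.36 and 6.09 CPM in WT libraries. Thra1PV/+ library 1 was above all WT libraries and the next 3 were low, so the groups overlapped and the log2 fold change was -0.16 (SE 0.55, adjusted p = 0.959). Nrg2 differed by 0.31 (SE 0.21, adjusted p = 0.700), at 6.66 to 10.2 CPM in Thra1PV/+ and 6.03 to 7.64 CPM in WT libraries. Nrg4, a ligand of ERBB4, had 5.49, 2.05, 1.94 and 5.64 CPM in Thra1PV/+ and 4.31, 25.0, 4.46 and 6.22 CPM in WT libraries. WT library 2 stood far above the rest, and the log2 fold change of -1.40 (SE 0.69, adjusted p = 0.571) was -0.38 without it. Nrg3 had 0 counts in all 8 libraries and Epgn 1 to 16 counts.

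RNA of every gene in the ligand shedding group was present in all libraries. All 8 genes of this group (ADAM proteases and the iRhoms that escort ADAM17) were tested, 0 were called, and their median log2 fold change was 0.17. Adam17, the main sheddase of Areg, Hbegf and Tgfa, differed by 0.19 (SE 0.21, adjusted p = 0.834). Adam8, a protease also found on leukocytes, was at 40.7 to 178 CPM in Thra1PV/+ and 5.51 to 38.4 CPM in WT libraries, without overlap. Its log2 fold change was 2.02 (SE 0.67, unadjusted p = 0.0153, adjusted p = 0.358), and DESeq2 called it with an adjusted p of 0.0574. The leukocyte genes moved in the same direction, and their part in Adam8 was not tested. Adam15 had a log2 fold change of -0.41 (unadjusted p = 0.0409, adjusted p = 0.489) and Rhbdf1 one of 0.58 (adjusted p = 0.639), both with overlap.

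Of the 12 genes that restrain the receptors, all were tested, 0 were called and the median log2 fold change was 0.14. Socs5, which promotes degradation of EGFR, was at 23.1 ± 3.60 CPM in Thra1PV/+ and 39.4 ± 10.9 CPM in WT libraries without overlap (log2 fold change -0.77, SE 0.21, unadjusted p = 0.00561, adjusted p = 0.244). In DESeq2 Socs5 had an adjusted p of 0.0715, which passed that threshold, but its log2 fold change of -0.74 was short of the fold threshold. Errfi1, which encodes the feedback inhibitor MIG6, differed by -0.58 (SE 0.45, adjusted p = 0.740) and by 0.11 without WT library 1. Socs3, an inhibitor of cytokine signalling, differed by 0.80 (SE 0.47, adjusted p = 0.645). 

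Below the receptors, 27 adaptor and kinase genes were tested and 0 were called. Their median log2 fold change was 0.00 and the lowest was -0.39. Mapk3, which encodes ERK1, had 166 ± 16.8 CPM in Thra1PV/+ and 209 ± 29.2 CPM in WT libraries without overlap (-0.34, SE 0.15, adjusted p = 0.508). Braf, a kinase upstream of it, differed by -0.38 (SE 0.21, adjusted p = 0.626).

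The 18 genes of ERK feedback and response, many of which ERK signalling is known to induce, had a median log2 fold change of 0.04, and 0 were called. Their log2 fold changes ran from -0.75 to 1.67, and 10 of the 18 were positive. The genes named here had the smallest p of this group and do not stand for its direction. Spry2, a feedback inhibitor induced by ERK, was at 27.6 ± 2.18 CPM in Thra1PV/+ and 39.8 ± 4.83 CPM in WT libraries without overlap (-0.53, SE 0.13, unadjusted p = 0.00308, adjusted p = 0.183). In DESeq2 Spry2 had an adjusted p of 0.0313, which passed that threshold, but its log2 fold change of -0.50 was short of the fold threshold. Its relative Spry4 was also without overlap, at 3.12 to 3.92 CPM against 4.03 to 6.49 CPM (-0.59, SE 0.26, adjusted p = 0.517). Spred1, of the same inhibitor family, differed by -0.48 (SE 0.17, unadjusted p = 0.0203, adjusted p = 0.388) with overlap. Over these 5 groups of genes around the receptors, 0 of the 68 tested were called by edgeR and DESeq2 called 1, Adam8. An unadjusted p under 0.05 in edgeR was found for 7, near the background of 9.77% of all tested genes. Libraries did not overlap between genotypes for 6.04% of all tested genes.

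**Figure D5:**
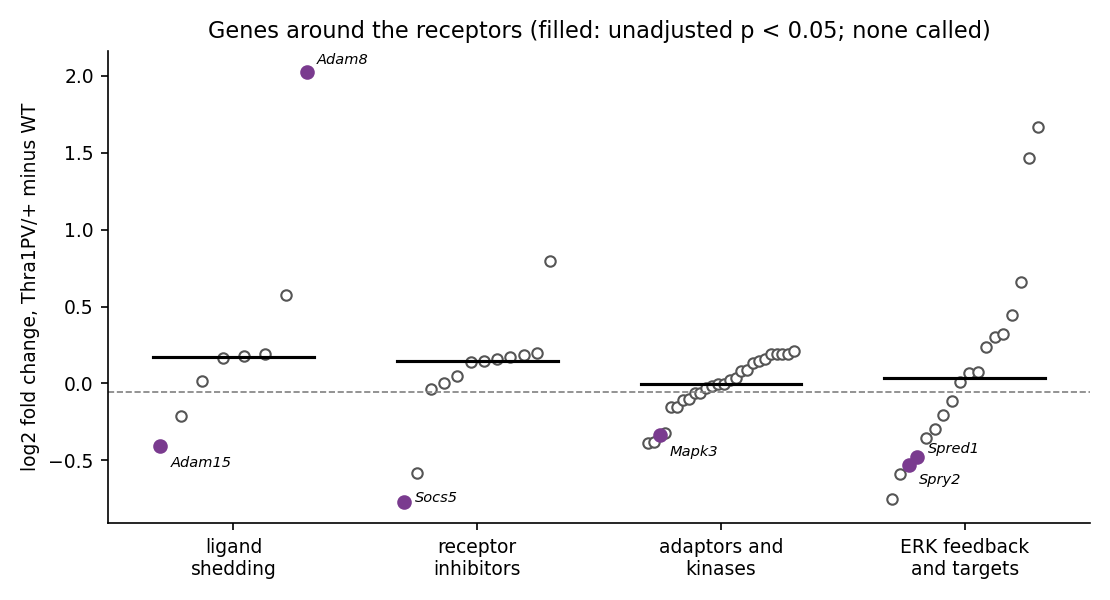
Log2 fold change (Thra1PV/+ minus WT) of tested genes of the shedding, inhibitor, adaptor and kinase, and ERK groups, with 1 kinase gene not drawn, and with a black line at the group median and a dashed line at the median of all tested genes (-0.05). Filled points have an unadjusted p under 0.05 and none is called; Adam8 (2.02) is the highest point and Socs5 (-0.77) the lowest.

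The genes with the most similar pattern were sought by the root mean square difference of centred log2 CPM over the 8 libraries, among 12132 tested genes whose log2 CPM averaged 2 or more. Erbb3 was nearest to Acvr1b (0.122), Marveld3 and Ttll10, and Erbb2 to Vsig10 (0.103), Cyp2j6 and Coa4. Btc was nearest to Skap2 (0.0995), Irak4 and Tirap, and Tgfa to Abcd3 (0.0998), Zdhhc5 and Ly6e. For Egfr the nearest genes were Zfp595 (0.166), Tet3 and Glul, and for Egf they were Efcab7 (0.176), Zfp39 and Osgepl1. Hbegf was nearest to Sowahb (0.311), Fas and Nfkbia. Differences were larger for Erbb4, with Gm45397 (0.475), Ankrd29 and Rasd1, and for Areg, with Tns4 (0.773), Plat and Hey1. The measure grows with a gene's own spread, and the SD of log2 CPM was 1.32 for Erbb4 and 1.71 for Areg against 0.369 for Egfr. Genes as scarce as Erbb4, Areg and Egf were not among the candidates, so closeness cannot be compared between members.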

How the data were processed

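RNA-seq of laser-captured endometrium was analysed in 8 libraries, grouped by the genotype in the labels. Stranded mRNA was sequenced in paired ends by the authors on an Illumina instrument. Their reads were trimmed with Trimmomatic and quantified with Salmon for mm10, with versions and annotation release not given in the sources used here. The authors deposited estimated counts that were not normalized, and TPM. At any rank the TPM of the libraries were within 0.291 of each other, the form quantile normalization gives. A further column of TPM values, 1 in all, was not used.

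Estimated counts were rounded to whole numbers, filtered with filterByExpr (minimum count 10, total 15), scaled by TMM and tested by genotype alone with edgeR 4.0.16 (quasi-likelihood, R 4.3.3), with Benjamini-Hochberg adjustment over all tested genes. Calls needed an adjusted p of at most 0.1 and a fold change of at least 2. Log2 CPM used a prior count of 2. DESeq2 1.42.0, the tool the authors chose, was an alternative here, as were limma 3.58.1, other scalings, filters and left-out libraries. Single values were compared by two-sided exact permutation tests over the 70 arrangements. The tests were checked on simulated data. The members and gene lists were chosen with earlier results of these data known. Named genes were all members, tested other ligands, up to 3 genes of smallest p in each other list, and the 3 nearest patterns of each member, except 1 kinase gene that is not reported here. Of the identifiers, 52220 had a symbol, and those without one took up to 0.00896% of a library's counts.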

Additional observations from a re-analysis of the deposited data

Results flagged for a closer look

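In all, 42 groups of 4 values were examined within a genotype (tested members, tested neuregulins and the epithelial ratios of the members). Of these, 2 held a value whose gap to the others was large for its group, where chance gives about 1 in 20, or 2.1. Tgfa relative to the pan-epithelial mean was at -2.77 on the log2 scale in WT library 3, against -2.05 to -1.92 in the other WT libraries. Erbb2 relative to the pan-epithelial mean was at -0.682 in WT library 4, against -0.12 to -0.10 in the other WT libraries. The cause was not tested.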

How the results depend on the processing

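The number of genes called, 180, was 791 with DESeq2, 311 with voom, 430 with the pan-epithelial mean as covariate (added after seeing the data), 81 with at least 10 counts in every library, and 1775 at an unadjusted p under 0.05. With 1 library left out it was 81 to 167, with 116 without Thra1PV/+ library 2, 81 without Thra1PV/+ library 3 and 114 without WT library 4. Replicate number as a block gave 82 calls and 0 members. Same-numbered libraries deviated together at correlations of 0.27, -0.44, 0.34 and -0.16, and 1 of 4 correlated best with its own number. Neither labels nor methods say whether the numbers pair mice. These correlations, over 4 libraries of each genotype, cannot decide it.

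Members called went from 0 to 1 with DESeq2 and to 1 at an unadjusted p. Shedding genes gave 1 with DESeq2 and 2 at an unadjusted p, and at an unadjusted p the inhibitors gave 1, the adaptors and kinases 2 and the ERK genes 2. The covariate gave 1 call among the adaptors and kinases. For Erbb4 the log2 fold change stayed negative in all 20 alternatives (-2.55 to -0.40, adjusted p 0.0580 to 0.753), with -0.40 on log2(TPM + 1).

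The sign of Erbb2 turned in 13 of 20 alternatives. Its log2 fold change was 0.0201 with DESeq2, 0.0186 with DESeq2's size factors, 0.0532 with upper quartile scaling, 0.12 with library size alone, 0.0229 with at least 1 count in any library, 0.00874 with at least 10 counts in every library, 0.14 with the replicate block, 0.29 with voom, and 0.16 and 0.17 on log2(TPM + 1) and log2(TPM + 0.1). The covariate gave -0.0501 for Areg and -0.0846 for Erbb3. Leaving out 1 library gave ranges of -0.44 to 0.90 for Hbegf, -0.46 to 0.0624 for Egf, -0.16 to 0.52 for Erbb2, -0.12 to 0.69 for Erbb3, -0.92 to 0.0876 for Nrg1 and -0.77 to 0.11 for Errfi1. Relative to the epithelial genes those ranges were -0.00396 to 1.79 for Areg, -0.51 to 0.20 for Hbegf, -0.0738 to 0.21 for Tgfa, -0.0415 to 0.20 for Btc, -0.43 to 0.26 for Egfr, -0.12 to 0.0526 for Erbb3 and -2.44 to -1.61 for Erbb4 (highest exact p 0.0571). Against simple epithelium the differences were 0.26 for Hbegf, 0.23 for Egfr, 0.14 for Erbb2, 0.26 for Erbb3 and -1.62 for Erbb4 (exact p = 0.114). The cause of these changes was not tested. Areg and Egf were not tested at 10 counts in every library. Areg, Ereg, Egf and Erbb4 are limited by depth, since their levels were under 1 CPM in most libraries.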

Other observations

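Erbb4 TPM divided by its CPM was 0.0883 to 0.127 in 7 libraries and 0.230 in WT library 3, the library with the most Erbb4 counts (375). For Erbb2 the same quotient was 0.213 to 0.242 in all 8 libraries, and for Erbb3 it was 0.180 to 0.201. A quotient of this kind depends on the transcript length that the quantification assigned, on the count and on the scaling of the deposited TPM. Which transcripts of Erbb4 were counted in WT library 3 was not analysed here.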
